A study of Mus musculus with 8 samples.

Results

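The interferon response genes described here are 42 genes that a named list chose by their known role in interferon signalling or induction, and 38 of them were found by symbol among the 28732 genes of the deposited count table. The other 4, Igtp, Psmb8, Psmb9 and Tap1, were not analysed here. RNA of the cerebral cortex was sequenced from tamoxifen-treated adult mice. The knockouts carried Cdh5-CreER, a tamoxifen-inducible recombinase under the promoter of the vascular endothelial cadherin gene, and floxed alleles of Tak1 (genotype Cdh5-CreER::Tak1fl/fl, 4 libraries). The controls carried the floxed alleles without the recombinase (Tak1fl/fl, 4 libraries) and received tamoxifen as well. The sample labels give postnatal day 90 and the series text 12 to 14 weeks, with littermates as controls. Recombination is directed to endothelial cells, which are a small part of the whole tissue sampled. The columns of the table number the knockouts 2 to 5 and the controls 1 to 4, and these numbers name the libraries here. Levels are in CPM, the counts scaled to a common library size by TMM, and a gene is said to have risen or fallen where its adjusted p was under 0.05 in edgeR's quasi-likelihood test over all genes tested.

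The libraries held between 13483354 and 17728963 counts assigned to genes. Mitochondrial ribosomal RNA took 26.9% to 29.3% of the counts in knockouts and 19.3% to 26.2% in controls, so the groups did not overlap in this share. Map3k7, the gene of TAK1, stood at 35.3, 37.4, 42.6 and 39.97 CPM in knockouts 2, 3, 4 and 5, against 41.6, 36.2, 39.6 and 42.7 CPM in controls 1 to 4. The groups overlapped, and since other cells of the cortex express Map3k7 and the counts cover the whole gene, this level does not check the deletion.

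Interferons are secreted cytokines of antiviral defence. Type I interferons act through a receptor that activates the kinases JAK1 and TYK2, and the signal reaches a complex that holds STAT2 and IRF9 and binds the interferon-stimulated response element (ISRE) in the promoters of many target genes. Interferon gamma acts on promoters through the gamma-activated site (GAS) and through IRF1. Among the targets are proteins that block viral RNA or entry, the ubiquitin-like protein ISG15, guanylate-binding proteins and immunity-related GTPases that attack intracellular microbes, and the machinery of antigen presentation. In the brain, microglia and endothelial cells are among the cells that express such genes at rest. TAK1 lies upstream of NF-kB and of MAP kinases, downstream of cytokine and Toll-like receptors.

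The promoters of the guanylate-binding protein genes are shown because these genes hold 3 of the 4 falls described below, and that of Oasl2 because it holds the other. Sequences are from RefSeq on GRCm38.p6 and run from 250 bases before to 50 bases after an annotated transcript start, in the direction of transcription. Capitals mark matches to the ISRE core GAAANNGAAA, which in these genes lie on the strand opposite to transcription and so read as its reverse complement.
Gbp5, chr3:142496684-142496983, plus strand, fell: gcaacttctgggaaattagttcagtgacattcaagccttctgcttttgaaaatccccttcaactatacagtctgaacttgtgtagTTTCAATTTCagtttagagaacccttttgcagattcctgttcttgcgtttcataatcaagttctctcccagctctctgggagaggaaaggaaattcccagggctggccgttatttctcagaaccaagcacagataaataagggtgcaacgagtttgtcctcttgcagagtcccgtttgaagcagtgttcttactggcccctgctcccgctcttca
Gbp3, chr3:142559794-142560093, plus strand, fell: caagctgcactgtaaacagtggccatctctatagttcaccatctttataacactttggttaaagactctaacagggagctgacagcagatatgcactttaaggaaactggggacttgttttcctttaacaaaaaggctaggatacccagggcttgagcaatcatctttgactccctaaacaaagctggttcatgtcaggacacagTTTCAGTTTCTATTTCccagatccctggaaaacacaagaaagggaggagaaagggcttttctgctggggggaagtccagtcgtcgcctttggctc
Gbp2, chr3:142620413-142620712, plus strand, not passed: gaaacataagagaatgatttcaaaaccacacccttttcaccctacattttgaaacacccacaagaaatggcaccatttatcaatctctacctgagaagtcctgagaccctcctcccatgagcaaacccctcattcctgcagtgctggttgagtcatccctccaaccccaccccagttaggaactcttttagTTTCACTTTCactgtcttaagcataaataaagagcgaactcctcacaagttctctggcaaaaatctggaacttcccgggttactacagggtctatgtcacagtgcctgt
Gbp7, chr3:142530086-142530385, plus strand, not passed: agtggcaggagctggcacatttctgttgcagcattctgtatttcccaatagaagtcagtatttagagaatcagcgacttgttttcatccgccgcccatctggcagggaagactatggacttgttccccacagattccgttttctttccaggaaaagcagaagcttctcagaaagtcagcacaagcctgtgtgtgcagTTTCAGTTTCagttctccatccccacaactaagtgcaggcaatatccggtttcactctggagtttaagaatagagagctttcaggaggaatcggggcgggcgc
Oasl2, chr5:114896684-114896983, plus strand, fell: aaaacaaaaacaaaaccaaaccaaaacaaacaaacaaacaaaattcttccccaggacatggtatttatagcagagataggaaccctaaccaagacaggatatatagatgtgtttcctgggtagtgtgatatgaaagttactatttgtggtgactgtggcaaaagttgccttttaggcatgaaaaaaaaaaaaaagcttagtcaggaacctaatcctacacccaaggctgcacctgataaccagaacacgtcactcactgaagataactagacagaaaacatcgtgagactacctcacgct

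The match began 165 bases before the start in Gbp5, 59 before it in Gbp2 and 53 before it in Gbp7. Gbp3 held a pair of overlapping matches, at 45 and 39 bases before the start, and a second annotated start of Gbp3 held none. The window of Oasl2 held no match to either motif searched. Gbp9 had no sequence to show. Both strands of each window were searched for the ISRE core and for the GAS motif TTCNNNGAA, and matches were allowed to overlap. Among the printed windows, those of Gbp5 and Gbp7 each held 2 matches to the GAS motif, which are not in capitals, and the others held none. Of the 30 members whose promoter sequence was searched, 19 (63.3%) held the ISRE core, against 3.99% of the 27025 genes in the promoter table. Iigp1, on chromosome 18, was left out of the search, while the 27025 genes were not limited by chromosome. The GAS motif was found in 9 members (30.0%), against 9.55% of all genes. The members were listed for their interferon role, so this describes the list. Among the tested members, 2 of the 15 with the ISRE core fell and 1 of the 9 without it, and the median log2 fold changes were -0.19 with the core and -0.16 without it.

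Of the 38 members, 31 passed the expression filter and 7 did not. In 24 of the 31, all 4 knockouts and all 4 controls stood at or above the filter's level of 0.653 CPM, while Oasl2, Iigp1 and Rtp4 reached it in all controls and in fewer knockouts. Of the 31, 4 fell in knockouts, none rose and 27 did not pass. The members that fell are Gbp5, Gbp9, Gbp3 and Oasl2, and thus 12.9% of the tested members fell while 2.99% of all 15564 genes tested fell. Across all genes 6.43% passed in either direction and 3.44% rose. At an unadjusted p under 0.05 there were 10 members lower and 1 higher, Lgals3bp, thus 11 of 31, against 4008 of all genes tested in both directions (25.8%). Neither DESeq2 nor limma voom called any member higher. The median log2 fold change (knockout over control) was -0.17 over the tested members and -0.0021 over all genes, and 21 of the 31 members lay below 0 (67.7%), against 50.2% of all genes. The list was chosen with earlier results of these data known, and the effect of that choice on these shares was not tested. For 16 members the 95% interval lay within a doubling and a halving. The counts depended on single libraries: 1 member fell without control 1, control 2, knockout 2 or knockout 5, 2 fell without control 3 or knockout 3, 3 without control 4 and 4 without knockout 4. Over all genes, leaving out single libraries gave between 93 and 1012 higher and between 35 and 1043 lower genes. The lowest counts in both directions came without control 2 (93 and 35) and the highest without knockout 4 (1012 and 1043). The others that moved a count by over 1.5 times were control 1 (208 and 117), control 3 (257 and 210), knockout 2 (224 and 146) and knockout 5 (109 and 46).

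**Figure D1:**
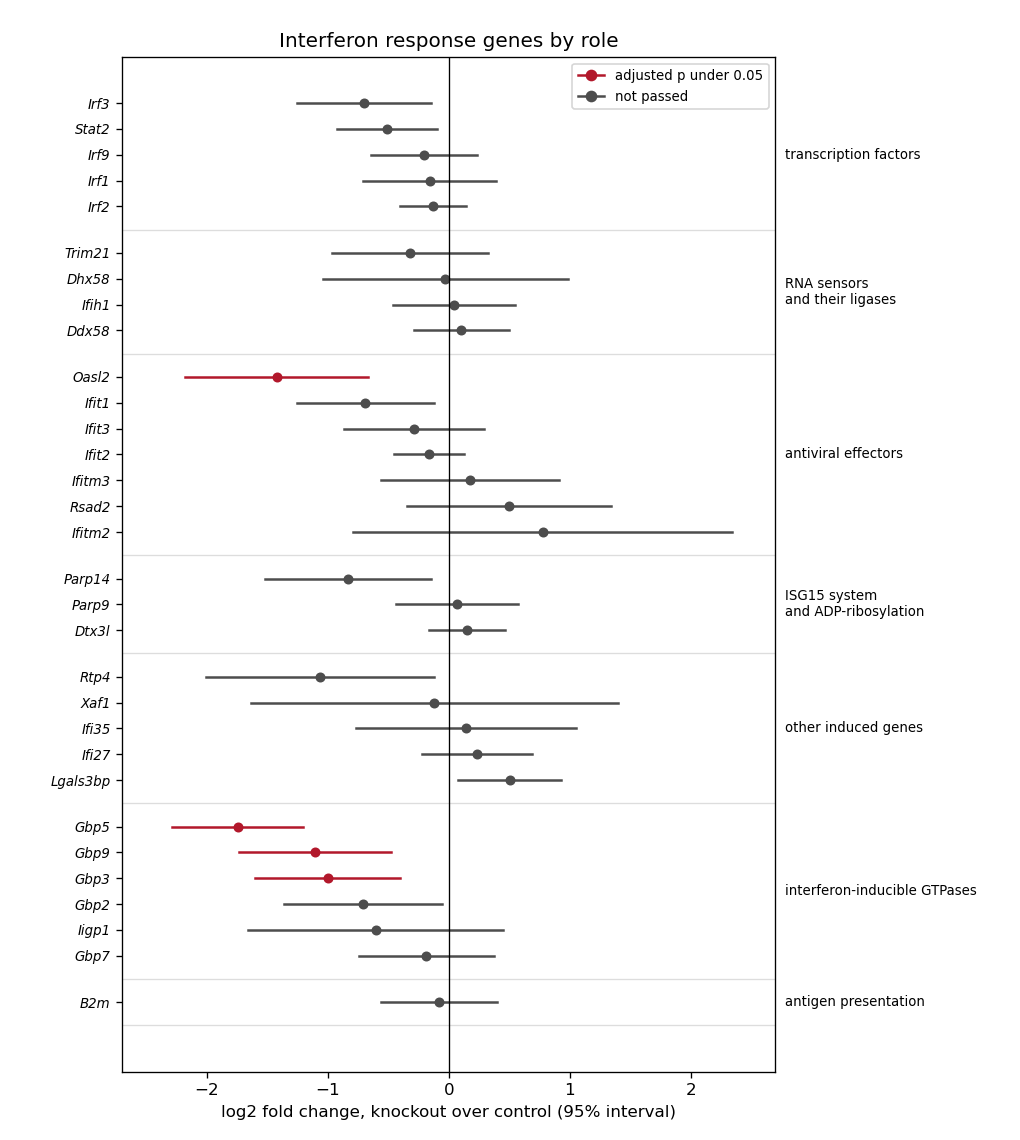
Log2 fold change of knockouts over controls for the 31 tested interferon response genes, grouped by role, with points for the estimate and bars for its 95% interval. Gbp5, Gbp9, Gbp3 and Oasl2 are in red as having passed an adjusted p of 0.05, and every tested gene of the GTPase group lies left of 0.

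Among the interferon-inducible GTPases were 3 of the 4 members that fell, Gbp5, Gbp9 and Gbp3, and the difference from the other roles was not tested. Of 8 members with a row, 6 were tested, 3 fell, none rose and all 6 lay below 0 in the fit above and under each alternative scaling. Their median was -0.86 on the log2 scale. Irgm1 and Irgm2, which were not tested, lay on opposite sides of 0 in a fit without the filter. Their log2 fold changes there were 0.89 ± 0.50 and -1.23 ± 1.15 (SE, adjusted p = 0.350 and 0.607 in edgeR). The guanylate-binding proteins assemble on the vacuoles and membranes of intracellular pathogens. Gbp5 (ENSMUSG00000105504, chromosome 3, 142493978 to 142522344, GRCm38), which in mice and humans also promotes inflammasome activation, stood at 1.23, 0.911, 1.52 and 1.09 CPM in knockouts 2, 3, 4 and 5, against 4.82, 3.20, 4.27 and 3.85 CPM in controls 1 to 4. These levels rest on 21, 12, 26 and 16 counts in knockouts and on 67, 51, 78 and 57 counts in controls. Every knockout lay below every control, and the counts of the groups did not overlap either. The means were 1.19 ± 0.258 CPM in knockouts and 4.03 ± 0.683 CPM in controls (SD, n = 4 each). The log2 fold change was -1.75 ± 0.25 (SE, adjusted p = 0.00438 in edgeR), a level 70.2% lower, and Gbp5 passed without any single library (adjusted p 0.00121 to 0.0239).

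Gbp9 (chromosome 5, 105077630 to 105139539) stood at 1.69, 0.911, 2.11 and 1.02 CPM in knockouts 2 to 5, against 3.17, 2.64, 3.39 and 3.31 CPM in controls 1 to 4. All 4 knockouts lay below all controls, with knockouts 3 and 5 the lowest. The log2 fold change was -1.10 ± 0.29 (SE, adjusted p = 0.0406 in edgeR). Gbp9 did not pass without control 1 (adjusted p 0.0938), control 2 (0.0890), control 3 (0.0983), control 4 (0.0642), knockout 2 (0.0798), knockout 3 (0.0641) or knockout 5 (0.120). Gbp3 (chromosome 3, 142560026 to 142573209) stood at 2.62, 3.87, 2.40 and 1.83 CPM in knockouts 2 to 5, against 4.53, 7.28, 6.02 and 3.51 CPM in controls. Knockout 3 lay above control 4, so the groups overlapped. The log2 fold change was -1.001 ± 0.28 (SE, adjusted p = 0.0490 in edgeR), just inside the threshold. Gbp3 did not pass without control 1 (0.0846), control 2 (0.162), control 3 (0.114), knockout 2 (0.112), knockout 4 (0.0558) or knockout 5 (0.144). Nor did it pass with upper-quartile scaling (0.0528), with a filter of 1 CPM in 4 libraries (0.0510) or in limma voom (0.0581).

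Gbp2, a family member that acts at the vacuole of Toxoplasma gondii in mice, stood at 2.57, 1.06, 3.28 and 2.85 CPM in knockouts 2 to 5, against 3.09, 4.08, 5.31 and 3.58 CPM in controls. Only knockout 4 reached into the control range. Its log2 fold change was -0.71 ± 0.30 (SE, adjusted p = 0.161 in edgeR). Gbp7, which lies between Gbp5 and Gbp3 on chromosome 3, had the smallest change of the family, with 3.34 to 7.08 CPM in knockouts and 3.60 to 6.68 CPM in controls (log2 fold change -0.19, 95% interval -0.75 to 0.37). The Gbp genes are alike in sequence. For each, the share of its transcripts' 50-base stretches was taken that the other gene sharing the most also holds. This share was 1.09% for Gbp5 (with 4930431F12Rik), 2.03% for Gbp2 (Gbp2b), 3.75% for Gbp3 (Gbp7), 4.42% for Gbp9 (Gbp8) and 10.5% for Gbp7. Stretches held only by further genes are not counted in it. For Gbp7 the other gene was Gm43802, a model on the same strand that overlaps 11.3% of its exon length. The immunity-related GTPase gene Iigp1, whose protein disrupts pathogen vacuoles in mice, stood at 0.642, 0.152, 1.35 and 0.814 CPM in knockouts, against 0.863, 1.00, 0.930 and 1.82 CPM in controls. The groups overlapped, and the adjusted p was 0.471. Irgm1 and Irgm2, regulators of the same family, did not pass the filter.

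**Figure D2:**
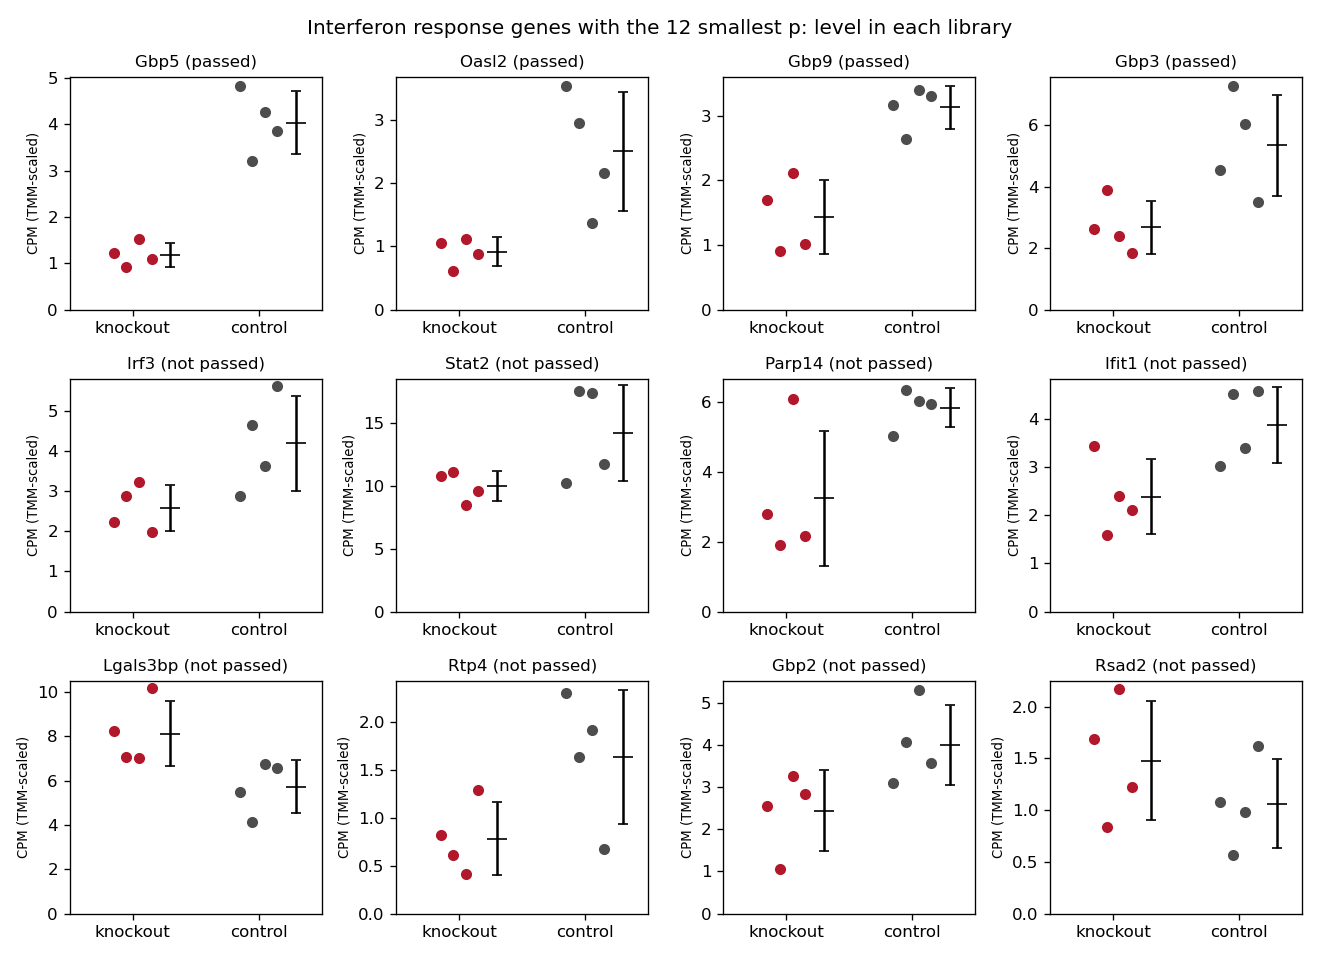
Level in CPM (TMM-scaled, linear axis from 0) of the 12 interferon response genes with the smallest p, with a point for each of the 4 knockout and 4 control libraries and, beside them, the mean and SD. Knockouts lie below all controls for Gbp5, Oasl2 and Gbp9, and above them for Lgals3bp, which did not pass.

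Among 8 antiviral effector genes with a row, 7 were tested, 1 fell and none rose, with 4 below 0 and 3 above it. Oasl2 (chromosome 5, 114896936 to 114912234), an oligoadenylate synthetase-like gene, stood at 1.05, 0.608, 1.11 and 0.882 CPM in knockouts 2 to 5, against 3.52, 2.95, 1.37 and 2.16 CPM in controls 1 to 4. Every knockout lay below every control, with control 3 the lowest control. The log2 fold change was -1.42 ± 0.35 (SE, adjusted p = 0.0325 in edgeR). In knockout 3 Oasl2 was under the filter's level, and it passed the filter through the other libraries. Oasl2 did not pass without control 1 (adjusted p 0.1000), control 2 (0.110), knockout 2 (0.0722), knockout 3 (0.0517) or knockout 5 (0.0963), or in limma voom (0.0633).

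Among the IFIT proteins, IFIT1 binds viral RNA that lacks the cap modifications of host RNA. Ifit1 stood at 3.44, 1.60, 2.40 and 2.10 CPM in knockouts, against 3.02, 4.52, 3.39 and 4.59 CPM in controls, and only knockout 2 reached into the control range (log2 fold change -0.69 ± 0.26, SE, adjusted p = 0.121 in edgeR). Ifit2 had 17.5, 18.0, 14.3 and 17.1 CPM in knockouts, against 20.3, 20.3, 18.7 and 15.8 CPM in controls. Its 95% interval was -0.46 to 0.13 on the log2 scale, so that a halving lies outside it. Ifit3 had 1.77 to 4.03 CPM in knockouts and 2.68 to 3.89 CPM in controls, and its value is uncertain because 51.2% of its 50-base stretches also occur in its copy Ifit3b. Rsad2, the gene of the radical SAM enzyme viperin, stood at 1.69, 0.835, 2.17 and 1.22 CPM in knockouts, against 1.08, 0.565, 0.985 and 1.62 CPM in controls. The groups overlapped (log2 fold change 0.50 ± 0.39, SE, adjusted p = 0.459 in edgeR). Of the membrane proteins that block viral entry, Ifitm3 stood at 0.835 to 2.10 CPM in knockouts and 1.15 to 1.69 CPM in controls. Ifitm2 stood at 0.117 to 1.34 CPM in knockouts and at 0.0719 to 0.879 CPM in controls. A model on its strand, Gm45717, overlaps 40.9% of its exon length, so the count of Ifitm2 is uncertain.

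None of the 5 transcription factor genes tested passed, and all 5 lay below 0, between -0.70 and -0.13 on the log2 scale, also under each alternative scaling. Irf3, the factor that virus sensors activate to induce interferon beta, stood at 2.22, 2.89, 3.22 and 1.97 CPM in knockouts 2 to 5, against 2.88, 4.65, 3.61 and 5.60 CPM in controls. Knockouts 3 and 4 lay within the control range, and the log2 fold change was -0.70 ± 0.26 (SE, adjusted p = 0.110 in edgeR). Stat2, the partner of IRF9 in type I signalling, stood at 10.8, 11.1, 8.49 and 9.64 CPM in knockouts, against 10.2, 17.6, 17.4 and 11.7 CPM in controls. Controls 2 and 3 stood apart above all other libraries, while control 1 lay among the knockouts (log2 fold change -0.51 ± 0.19, SE, adjusted p = 0.113 in edgeR). Irf9, the DNA-binding partner of this complex, had 3.34 to 5.19 CPM in knockouts and 4.27 to 6.34 CPM in controls. The activator Irf1 and its antagonist Irf2 had adjusted p of 0.746 and 0.569, and the 95% interval of Irf2 was -0.40 to 0.14. Irf7, the factor that amplifies type I interferon production, did not pass the filter.

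The estimates for the sensors of viral RNA in the cytoplasm lay near 0 on the log2 scale. Of the 4 tested genes in the group of sensors and their ubiquitin ligases, none passed and the median log2 fold change was 0.0053. Ddx58, the gene of RIG-I, had 4.56 to 5.57 CPM in knockouts and 3.71 to 5.47 CPM in controls, with a 95% interval of -0.29 to 0.49. Ifih1, the gene of MDA5, had 3.56 to 6.44 CPM in knockouts and 3.81 to 6.48 CPM in controls, with a 95% interval of -0.46 to 0.54. For both genes a doubling or a halving lies outside the interval. Dhx58, the gene of the related helicase LGP2, stood at 0.293 to 1.22 CPM in knockouts and 0.502 to 0.935 CPM in controls, and its interval of -1.04 to 0.99 was wide. Trim21, an antibody receptor and ubiquitin ligase, had an adjusted p of 0.544.

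In the group of ISG15 and ADP-ribosylation genes none of 3 tested members passed. Parp14, a mono-ADP-ribosyltransferase, stood at 2.80, 1.90, 6.09 and 2.17 CPM in knockouts 2, 3, 4 and 5, against 5.04, 6.34, 6.02 and 5.94 CPM in controls. Knockouts 2, 3 and 5 lay far below every control, and knockout 4 lay at the level of the controls. The log2 fold change was -0.83 ± 0.31 (SE, adjusted p = 0.121 in edgeR), and without knockout 4 it was -1.33 (adjusted p = 0.00263), a fit singled out here after the value of knockout 4 was seen. Parp9 and its partner Dtx3l, neighbours transcribed in opposite directions that share 8.0% of the exon length of Dtx3l, had log2 fold changes of 0.07 ± 0.24 and 0.15 ± 0.15 (SE) with adjusted p of 0.889 and 0.563 in edgeR. The difference between Parp14 and this neighbouring pair on chromosome 16 was not tested. Isg15 and Usp18, the protease that removes ISG15, did not pass the filter.

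Of 5 other induced genes none passed. Lgals3bp, which encodes a secreted galectin-binding glycoprotein, stood at 8.22, 7.06, 7.02 and 10.2 CPM in knockouts, against 5.47, 4.14, 6.73 and 6.54 CPM in controls. All knockouts lay above all controls, which held for 8.58% of all genes tested and for 1 member, and the log2 fold change was 0.50 ± 0.20 (SE, adjusted p = 0.131 in edgeR). Knockouts lay below all controls for 7.65% of all genes tested and for 3 members (9.68%), Gbp5, Oasl2 and Gbp9. Rtp4, a chaperone of G-protein coupled receptors that restrains replication of some viruses, stood at 0.816, 0.608, 0.410 and 1.29 CPM in knockouts, against 2.30, 1.63, 1.92 and 0.675 CPM in controls. Control 4 lay among the knockouts (log2 fold change -1.06 ± 0.44, SE, adjusted p = 0.148 in edgeR). Xaf1, the gene of a proapoptotic partner of XIAP, spread more within the groups than between them, with 9.51, 3.42, 15.9 and 2.38 CPM in knockouts 2 to 5 and 8.85, 3.33, 9.52 and 12.6 CPM in controls 1 to 4. Ifi27 and Ifi35 had adjusted p of 0.528 and 0.867.

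B2m, the light chain of MHC class I molecules, was the only antigen presentation member analysed. It stood at 55.5, 29.1, 54.8 and 49.1 CPM in knockouts, against 38.5, 40.9, 59.3 and 60.7 CPM in controls, and the groups overlapped (log2 fold change -0.08, 95% interval -0.56 to 0.40). Per kilobase of exon B2m was also the most abundant member, at 54.8 CPM in knockouts and 58.0 CPM in controls. Next on this per-length scale were Ifit2 (4.26 and 4.78 CPM per kilobase in knockouts and controls) and Irf2 (3.15 and 3.45). Gbp5 stood at 0.179 CPM per kilobase in knockouts and 0.608 in controls, so the largest fall was that of a gene at low abundance in the tissue.

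The 7 members that did not pass the filter were Irf7, Isg15, Usp18, Irgm1, Irgm2, Trim25 and Bst2. Usp18 had 5, 4, 5 and 5 counts in knockouts 2 to 5, against 15, 12, 13 and 9 counts in controls 1 to 4. All knockouts lay below all controls, and in a fit without the filter its log2 fold change was -1.34 ± 0.54 (SE, adjusted p = 0.143 in edgeR). Isg15, often a strongly induced interferon target, had 1, 3, 1 and 2 counts in knockouts and 1 count in each control. The antiviral tether gene Bst2 had 4 to 14 counts in knockouts and 3 to 10 in controls. Irf7 had 2 to 10 counts in knockouts and 5 to 16 in controls. Irgm1 had 8 to 22 counts in knockouts and 4 to 9 in controls. Irgm2 had at most 1 count in a knockout and 3 in a control, and Trim25, a ligase of RIG-I, had 0 to 28 counts in knockouts and 0 to 12 in controls. In the fit without the filter Irf7 (log2 fold change -0.59) and Irgm2 (-1.23) also lay below 0. Irgm1 (0.89), Trim25 (0.83), Isg15 (0.78) and Bst2 (0.49) lay above it. None of the 7 passed without the filter (lowest adjusted p = 0.143 in edgeR), and at these counts a change of any of them other than a large one was not detectable.

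The members did not move alike in each knockout. Against the mean of the controls, on the scale of log2(CPM + 0.5), the median over the 31 tested members was -0.09 in knockout 2, -0.37 in knockout 3, -0.14 in knockout 4 and -0.30 in knockout 5, against -0.0068, 0.07, 0.0045 and 0.07 in controls 1 to 4. Over all genes tested the same median lay between -0.01 and 0.02 in each library. Knockout 3 held the lowest level of the 8 libraries for 12 of the 31 members, and knockouts 5, 4 and 2 for 6, 5 and 1. The summed level of the tested members was 194, 153, 199 and 176 CPM in knockouts 2 to 5, against 192, 199, 217 and 220 CPM in controls 1 to 4, and B2m makes up a large part of these sums. Knockout 4, which stood with the controls for Parp14, was below all controls for Gbp5, Gbp9, Oasl2 and Gbp3.

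**Figure D3:**
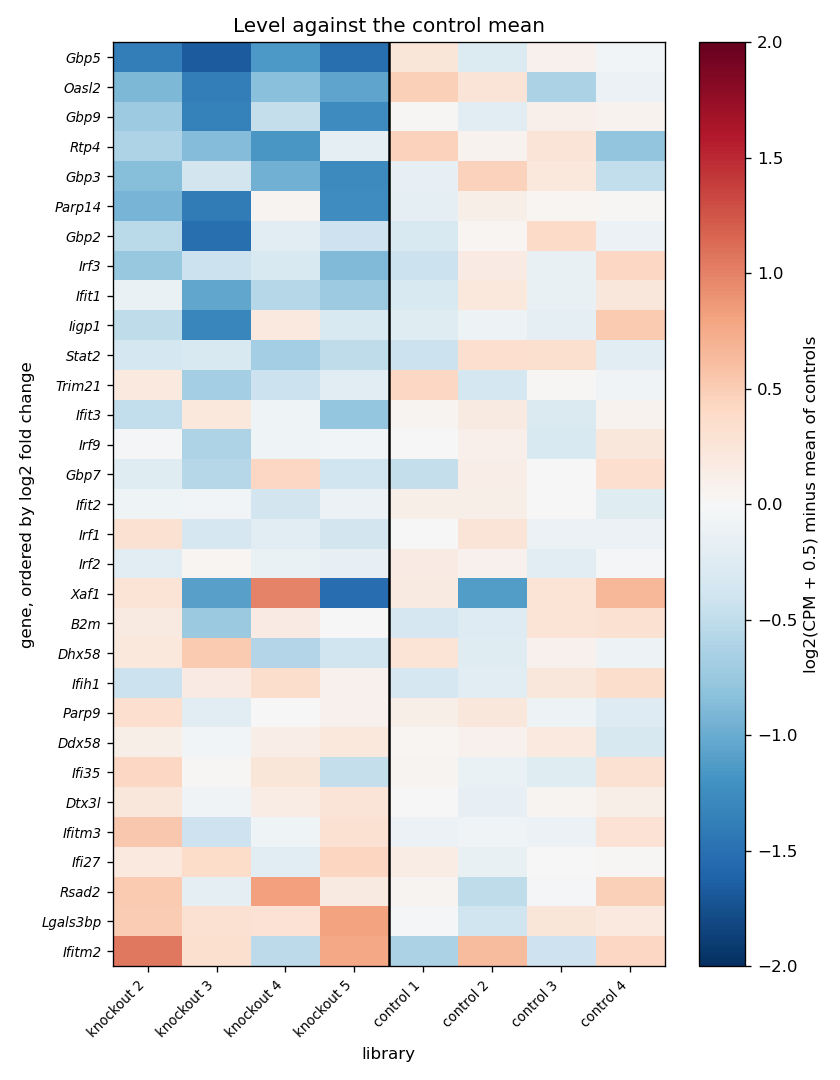
Level of each tested interferon response gene in each library, as log2(CPM + 0.5) minus the mean of the 4 controls, with genes ordered by log2 fold change and knockouts left of the line. Gbp5, Oasl2, Gbp9 and Gbp3 lie below 0 in all 4 knockouts, as do several genes that did not pass, such as Irf3 and Stat2. Knockout 4 is near 0 for Parp14.

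Other genes of the pathway were taken from lists of ligands, sensors, targets and presentation genes. Of 14 tested interferon receptor and JAK-STAT genes, 1 rose, none fell and the median was -0.04. Socs3, the feedback inhibitor of JAK kinases downstream of IL-6 family receptors, stood at 7.46, 5.24, 2.63 and 5.29 CPM in knockouts, against 2.16, 1.19, 1.64 and 1.28 CPM in controls. All knockouts lay above all controls, knockout 4 by the least (log2 fold change 1.72 ± 0.32, SE, adjusted p = 0.0118 in edgeR, 0.0562 without control 2). The kinase gene Tyk2 (-0.60 ± 0.23), the STAT inhibitor Pias1 (0.33 ± 0.13) and the interferon gamma receptor gene Ifngr1 (0.57 ± 0.23) had adjusted p of 0.116 to 0.146 in edgeR. The ligand genes Ifnb1, Ifng and Ifna4 were not analysed here.

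Of 16 tested genes of nucleic acid sensors, adaptors and kinases, 1 rose and 2 fell, with a median of -0.20. Tlr7, the endosomal receptor for single-stranded RNA, stood at 11.2, 10.7, 6.50 and 13.03 CPM in knockouts, against 2.09, 3.26, 3.34 and 3.51 CPM in controls. Every knockout lay above every control (1.75 ± 0.24, SE, adjusted p = 0.00333 in edgeR), and Tlr7 passed without any single library. Tbk1, the kinase that phosphorylates IRF3, stood at 51.0, 55.7, 55.5 and 45.8 CPM in knockouts, against 74.3, 70.6, 68.0 and 63.96 CPM in controls. The groups did not overlap (-0.41 ± 0.10, SE, adjusted p = 0.0356 in edgeR), and Tbk1 did not pass without control 1, 2 or 3 or knockout 2 or 5 (adjusted p 0.0786 to 0.118). Traf3, an adaptor upstream of TBK1, fell as well, with knockouts at 36.7, 29.3, 32.1 and 33.9 CPM and controls at 45.2, 42.6, 44.4 and 42.6 CPM (-0.40 ± 0.11, SE, adjusted p = 0.0418 in edgeR). It passed without knockout 4 and lost its call without any other single library (adjusted p 0.0559 to 0.113), with upper-quartile scaling (0.0635) and with no filter (0.0524). The DNA and RNA helicase gene Ddx41 stood at -0.56 ± 0.17 on that scale (SE, adjusted p = 0.0596 in edgeR).

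Of 18 tested genes in a list of other interferon-stimulated genes, 1 rose and none fell, with a median of -0.03. The riser was Nt5c3, a pyrimidine nucleotidase gene, at 31.96, 28.1, 28.2 and 28.5 CPM in knockouts and 16.0, 19.5, 22.2 and 21.6 CPM in controls (0.56 ± 0.13, SE, adjusted p = 0.0273 in edgeR), which did not pass without control 1 or 2 or knockout 2 or 5 (adjusted p 0.0737 to 0.0965). Sp100, a nuclear body protein gene (-0.86 ± 0.29), Gbp4 (-1.19 ± 0.48) and Tor3a (0.48 ± 0.21) had adjusted p of 0.0874 to 0.167 in edgeR. Gbp4 has a gene range on chromosome 5 (105115767 to 105139586) that overlaps the range of Gbp9. A further 20 genes of this list had too few counts to be tested, among them Mx1 (14 counts summed over knockouts and 15 over controls) and Oas1a (1 and 8). Of 9 tested genes of MHC class I presentation, 1 fell and none rose. That gene was the chaperone gene Calr, at 883, 596, 577 and 522 CPM in knockouts and 1263, 1264, 1039 and 875 CPM in controls (-0.79 ± 0.17, SE, adjusted p = 0.0239 in edgeR), and calreticulin serves protein folding in general. Calr did not pass without control 1, 2 or 3 or knockout 3 or 5 (adjusted p 0.0501 to 0.0830). None of 13 constitutive proteasome genes and none of 3 MHC class II presentation genes passed, with medians of 0.35 in both lists. The proteasome genes Psma6 (0.39 ± 0.12) and Psma1 (0.35 ± 0.11) and the invariant chain gene Cd74 (1.10 ± 0.34) had adjusted p of 0.0694 to 0.0744, with all knockouts above all controls.

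**Figure D4:**
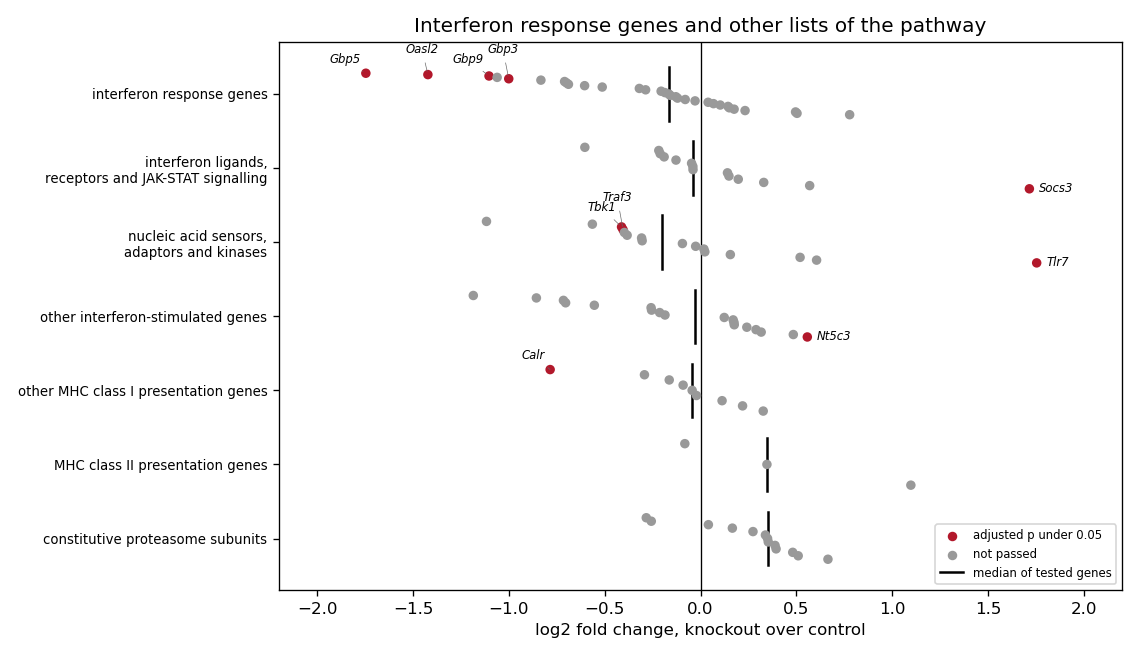
Log2 fold change of knockouts over controls for tested genes of the interferon response and of 6 other lists of the pathway, one point a gene, with the median of each list as a bar and genes past an adjusted p of 0.05 in red. Socs3 and Tlr7 lie near 1.7 on the right and Gbp5 lies farthest left.

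Whole tissue was sampled, so fewer cells of a type and less RNA per cell cannot be told apart. Markers of 10 cell types were summed in each library. The 14 microglia markers summed to 326, 168, 308 and 216 CPM in knockouts 2 to 5, against 413, 346, 328 and 318 CPM in controls 1 to 4, and knockouts 3 and 5 were the lowest. Of these markers 1 fell (Sall1), 2 rose (C1qa and C1qb) and 11 did not pass. Their median log2 fold change was -0.39. Knockouts 3 and 5 were also the lowest libraries for Gbp5, Oasl2 and Gbp9, 3 of the 4 members that fell. Gbp3, the other one, was highest among knockouts in knockout 3 (3.87 CPM) and lowest in knockout 5 (1.83 CPM). The part of microglia in these values was not tested. The 15 endothelial markers summed to 213 to 332 CPM in knockouts and 190 to 244 CPM in controls. Of these, 3 rose (Cdh5, Ly6c1 and Vwf) and 1 fell (Tek). Flt1 was the largest single part of this sum, at 79.1 to 140 CPM in knockouts and 70.4 to 95.9 CPM in controls, and did not pass. The 11 blood leukocyte markers summed to 28.3 to 47.9 CPM in knockouts and 20.3 to 22.2 CPM in controls, and none of the 4 tested passed. Cd4 made up most of this sum in controls (11.4 to 12.9 CPM) and stood at 12.7 to 22.1 CPM in knockouts. S100a9, a gene of neutrophils, stood at 13.4, 10.9, 1.17 and 12.1 CPM in knockouts 2 to 5 and at 0.126 to 1.73 CPM in controls, and knockout 4 lay within the control range. No marker in this list was at 0 in all libraries, but Cd3e, Cd3g and Cd8a had at most 6 counts summed over a group. The 6 choroid plexus markers summed to 517, 375, 437 and 536 CPM in knockouts, against 18.0, 15.1, 11.5 and 185 CPM in controls, 4 of the 6 rose, and knockouts lay above all controls. Ttr made up most of the sum in knockouts (351 to 513 CPM) and in control 4 (174 CPM), and itself did not pass (adjusted p = 0.183 in edgeR). The part of leukocytes and of choroid plexus in the values of the interferon response genes was not tested. The markers of excitatory cortical neurons summed to 2602 to 3930 CPM in knockouts and 2453 to 2855 CPM in controls. Camk2a made up most of this sum, at 2065 to 3263 CPM in knockouts and 1843 to 2220 CPM in controls. Of the 7 markers 1 fell (Neurod6, -0.68 ± 0.14, SE, adjusted p = 0.0186 in edgeR) and 6 did not pass. Knockouts lay below all controls for Neurod6 and Emx1, and the groups overlapped for the others. The median log2 fold change of these markers was -0.04. Border macrophage markers had a median of 0.52, and none of the 4 tested passed. Among 9 tested astrocyte markers 2 rose (Aldh1l1 and Gjb6) and 7 did not pass. Oligodendrocyte markers held 1 that rose (Mobp) and 1 that fell (Ermn) among 6 tested. No mural cell marker (8 tested) or inhibitory neuron marker (6 tested) passed.

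**Figure D5:**
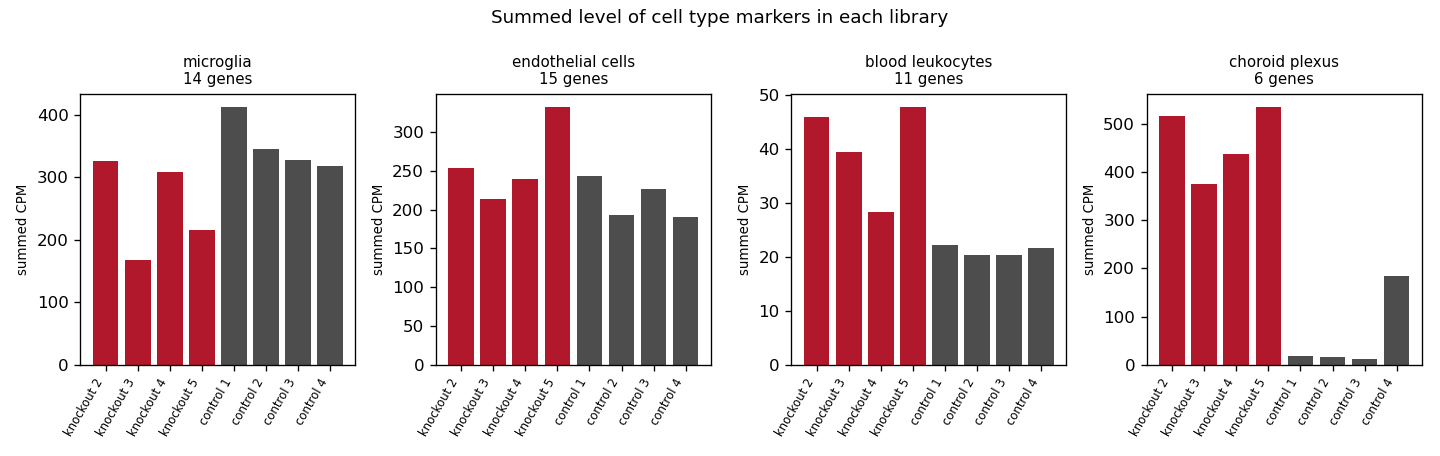
Summed level in CPM of microglia, endothelial, blood leukocyte and choroid plexus markers in each library, with knockouts in red and controls in grey and axes from 0. Microglia markers are lowest in knockouts 3 and 5, and choroid plexus markers are higher in all knockouts than in any control.

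In the authors' deposited table the same 4 members had an adjusted p under 0.05. The log2 fold changes in the authors' deposited table were -1.75 for Gbp5 (adjusted p 2.06e-06), -1.43 for Oasl2, -1.11 for Gbp9 and -1.01 for Gbp3, with adjusted p of 0.00728 for Oasl2, 0.0134 for Gbp9 and 0.0138 for Gbp3. No member with a positive log2 fold change had an adjusted p under 0.05 in the authors' deposited table, where 2 of the 38, Isg15 and Irgm2, had none given.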

How the data were processed

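Cortex RNA of 8 libraries was analysed, 4 knockout and 4 control. The submitters' processing notes name FastQC, HISAT and HISAT2, the build GRCm38, featureCounts and DESeq2, and give no versions. Whether counting used strand is not given in the sources used here, so overlapping and antisense genes cannot be told apart. The authors deposited whole-number counts per gene and library. The authors' deposited table also gives a mean signal per gene (counts over size factors), a log2 fold change with its error, a Wald score and p-values, by DESeq2 per the file headers. Of 29012 lines 280 were repeats, and 28682 of 28732 gene IDs matched GENCODE M21, which gave positions and exon lengths.

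Genes were kept with edgeR's filterByExpr, scaled by TMM and tested with the quasi-likelihood F test (robust, no covariate, Benjamini-Hochberg over all genes), edgeR 4.0.16 in R 4.3.3. Alternatives were other scalings, other filters, DESeq2 1.42.0, limma voom 3.58.1, leaving out each library and a block on the column number. Intervals are 95% intervals from the fit. The procedure was tested on simulated data with 200 changed genes, at the same threshold. It recovered 24.6% of 1.5-fold, 61.2% of 2-fold and 93.2% of 4-fold changes, and 6.67% of its calls were false. Plots used matplotlib 3.10.9 in Python 3.11.15.

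The members and lists were chosen with earlier results of these data known. Values per library are given for members that passed and for the 10 others with the smallest p, and from other lists for up to 4 genes by smallest p; Map3k7, B2m, Xaf1, Usp18, S100a9 and the marker sums were added after their values were seen. One listed gene was matched through another symbol. No label ties a library to an animal of its own. The p-values therefore reflect the spread among these 8 libraries, which may be technical. The knockout columns are numbered 2 to 5 while the sample titles number knockouts 5 to 8.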

Additional observations from a re-analysis of the deposited data

Results flagged for a closer look

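In groups of 4 libraries, 3 values of tested interferon response genes stood far from the other 3 of their group, with a gap to the nearest of them, as a share of the group's range, above Dixon's 95% critical value. Irf9 stood at 3.34 CPM in knockout 3, below the other knockouts (gap 0.915 of the range). Ifitm3 stood at 1.69 CPM in control 4 (gap 0.918) and Iigp1 at 1.82 CPM in control 4 (gap 0.853), both above the other controls. Chance flags about 1 in 20 groups, and 62 groups were examined.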

How the results depend on the processing

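Of the 31 tested members, 26 kept their call under all 15 alternatives they could be fitted in and 23 kept their sign. The sign changes were of members that passed in no fit. Gbp5 lost its call with the column number as a replicate block (adjusted p = 0.0998) and kept it in the other 14. The number of members higher was 0 in all 15 alternatives. The number lower was 2 in limma voom, 0 with the replicate block (edgeR, with 10 lower and 0 higher of 31 at an unadjusted p under 0.05, against 2291 of all 15564 genes in both directions), and between 1 and 4 when single libraries were left out. Over all genes the counts were 535 higher and 466 lower, against 821 and 745 with no filter, 967 and 857 in DESeq2, 15 and 2 with the replicate block, and 93 to 1012 and 35 to 1043 without single libraries. The numbers 2, 3 and 4 stand in both groups of columns, but the labels do not pair them, and same-numbered libraries deviated from their group means with correlations of 0.0084, -0.25 and 0.26 across genes, so the block is given only here. Most members stood at a few CPM, where the counts per library limit what can be detected.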
